A study of Homo sapiens with 6 samples.

Results

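The genes described here are the matrix metalloproteinases (MMP), the ADAM and ADAMTS proteases, the ADAMTS-like proteins (ADAMTSL), their inhibitors TIMP1 to TIMP4 and RECK, and the MMP inducer BSG. A probe set was taken where the array's annotation gave it 1 gene symbol only and that symbol was MMP, ADAM, ADAMTS, ADAMTSL or TIMP followed by a digit, or ADAMDEC1, RECK or BSG. The rule itself used no measured value, but the members were chosen with earlier results of these data known. It found 183 of the 54675 probe sets, and they belonged to 81 of the 19775 genes measured. Of the 81 genes, 70 were proteases, protease-like proteins, inhibitors or BSG, and 11 were transcripts with names of antisense, opposite-strand, divergent or pseudogene loci. MMP23A and MMP23B shared a probe set, ADAM29 shared one with another gene, and these genes, like ADAM7 and ADAMTS7, are not analysed here.

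The 6 arrays fell into 2 groups of 3. Undifferentiated arrays carried RNA of H9, an established human embryonic stem cell line (hESC). Progenitor arrays carried RNA of H9 cells that had been driven towards mesoderm with VEGF, FGF2, BMP4 and activin A and grown in medium of the Stemline II brand and sorted by flow cytometry on day 3.5 as cells with CD56 and without CD326. Both groups therefore came from 1 cell line, and no array carried unsorted cells of day 3.5 or stem cells passed through the sorter. RNA of both groups was extracted with a micro kit and amplified into biotinylated cRNA before hybridization. The labels do not say that the 3 samples of a group were separate cultures, so p-values here reflect the spread among these 3 against 3 arrays, part or all of which could be technical.

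Metalloproteinases of these families cut the matrix around cells and the outer parts of membrane proteins, with a zinc ion in the active site. Soluble MMPs act on collagens, laminins and other matrix proteins, membrane-type MMPs do so at the cell surface, most ADAMs release growth factors and receptor parts from membranes, and ADAMTS enzymes trim proteoglycans, procollagens and other secreted proteins. TIMPs block the active site, RECK restrains several MMPs at the cell surface, and many of the proteases are made as inactive precursors that furin-like convertases switch on. In the embryo, cells that leave the epithelial epiblast to form mesoderm cross and remodel a basement membrane.

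Levels are given as log2(intensity + 16) after quantile normalization, in the order of arrays 1, 2 and 3. A change is the progenitor mean minus the hESC mean on that scale, with its standard error (SE), and it understates the change of dim genes. A gene is called higher or lower where limma gave an adjusted p under 0.05 over all genes tested, and each gene is represented by its brightest probe set. In bulk RNA, fewer cells with a transcript and less transcript per cell cannot be told apart.

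The protease genes moved in both directions. ADAMTS9, MMP28, ADAMTS3, ADAM12, ADAM19 and MMP2 had the largest increases in progenitors, between 2.64 and 5.24, while ADAMTS8 fell by 3.70 and MMP16, MMP25, MMP17 and MMP24, all tethered to the cell membrane, had changes of -1.12 or below. Of the 81 genes, 25 were higher (30.9%), 19 were lower (23.5%) and 37 were not called. Over all genes, 26.7% were higher and 21.2% were lower, so the shares lay near the background. In all, 44 members (54.3%) were called, against 47.9% of all genes. With a change of at least 2-fold as a further condition, 23 of the 81 members were called, 12 higher and 11 lower. This was a larger share than the 16.6% of all genes that passed both conditions, and the difference was not tested. The arrays of the groups did not overlap for 47 members, 26 higher and 21 lower (57.3% of all genes did not overlap). The median change was 0.02 over the members and 0.04 over all genes. Of the called members 56.8% were higher, against 55.8% of all called genes. These shares became 43.5% and 37.2% when arrays were centred on the median of their gene values, and 65.2% and 82.0% when they were scaled on the hybridization controls, and in these settings all genes together had a median change of -0.15 and 0.32.

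**Figure D1:**
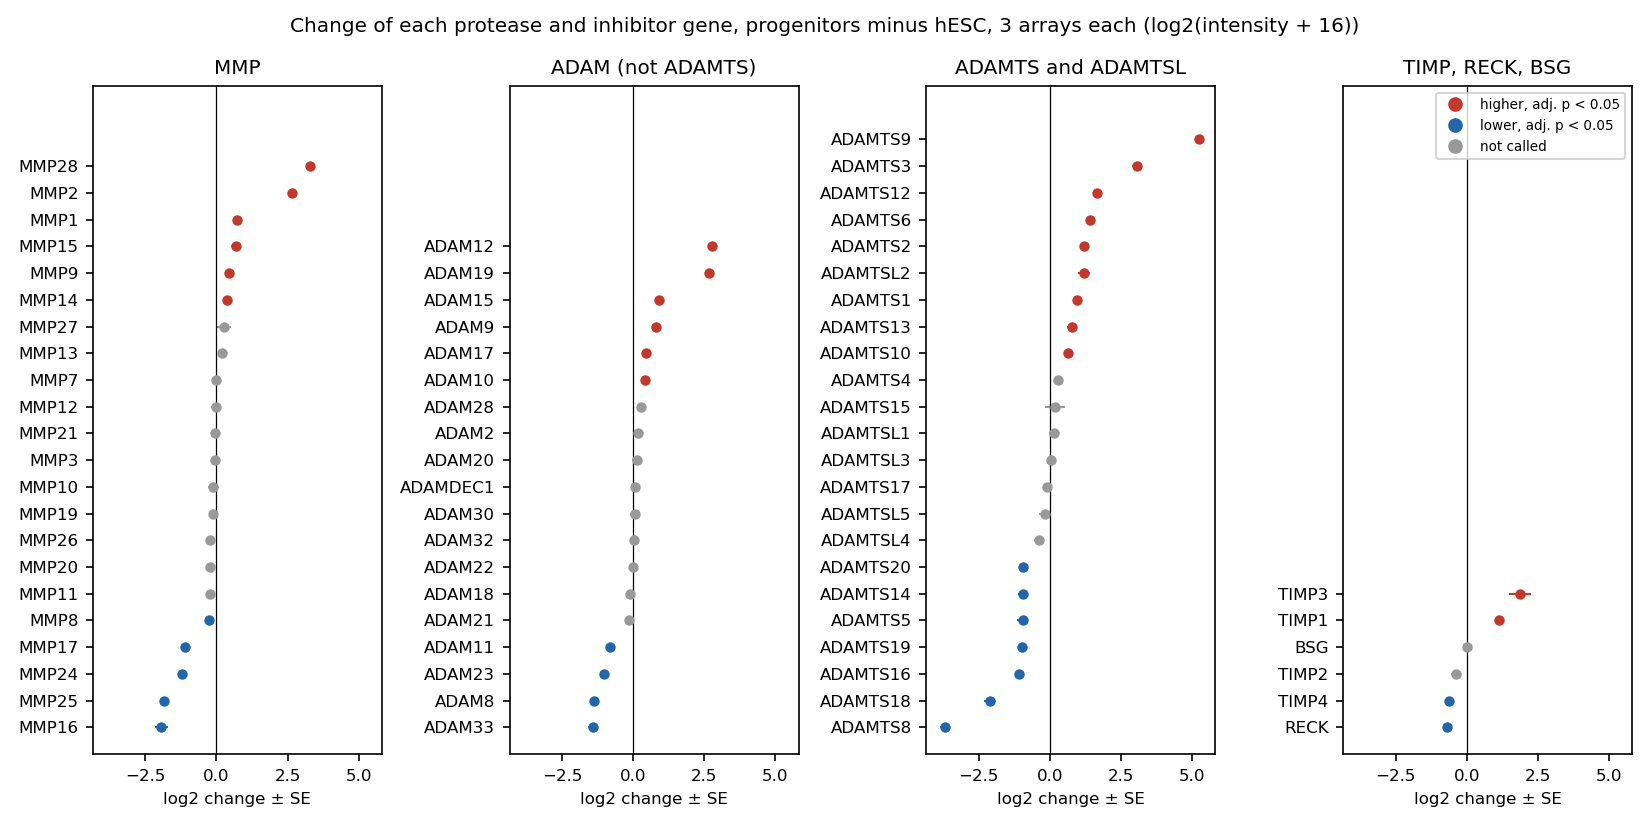
Each point is a gene and its bar the SE. The horizontal axis gives the change in log2(intensity + 16), progenitors minus hESC with 3 arrays each, and the colours give the limma call. Changes run from -3.70 for ADAMTS8 to 5.24 for ADAMTS9, and genes that were not called lie between -0.40 and 0.27.

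The array data on the labelled cell states were as follows. All 6 measured mesoderm genes, among them TBXT, MIXL1 and PDGFRA, were higher in progenitors, and all 6 measured genes of undifferentiated cells, among them NANOG and SOX2, were lower. Median deposited intensities were 31.0 to 31.2 on progenitor arrays and 33.1 to 36.1 on hESC arrays. Of the markers of other cell types, 6 of 10 endothelial, 3 of 6 endoderm, 2 of 7 trophoblast, 1 of 4 blood and 4 of 7 fibroblast genes were higher in progenitors. Lower were 1 endoderm, 2 trophoblast, 1 blood and 1 fibroblast gene, and no endothelial gene. Over all genes, 26.7% were higher and 21.2% were lower. The part of such cells in the protease changes was not tested. Progenitor arrays 2 and 3 lay nearest to each other, with 7 genes over 2-fold apart and no protease or inhibitor among them, while the other pairs within a group had 46 to 208 such genes.

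Promoter sequence is shown for 6 members past 2-fold with a RefSeq entry whose probe sets did not oppose each other. They are the 4 largest increases among such genes and 2 decreases, so that the region before the start site can be read beside the change. The 2 decreases were not chosen by size alone and are not the largest of all members. ADAMTS8 (-3.70), ADAMTS18 (-2.11), ADAMTS16-DT (-2.05), MMP16 (-1.94), MMP25 (-1.84) and ADAM33 (-1.42) fell further and are not shown. ADAMTS18 and ADAM33 had opposed probe sets. No reason is given here for the absence of ADAMTS16-DT, MMP16 and MMP25. RefSeq promoters (GRCh38.p14) matched 47 of the 81 members, and none was matched for MMP2, MMP28, ADAMTS8 or ADAMTS9. Each sequence is the 120 bases before the annotated start, 5′ to 3′ in the direction of the gene, with matches to the GC box (GGGCGG, or CCGCCC on the other strand) and to the AP-1 motif (TGANTCA, which reads the same on both strands) in capitals. ADAMTS3 lies at chr4:72569222-72569341 on the minus strand, ADAM12 at chr10:126388478-126388597 (minus), TIMP3 at chr22:32801585-32801704 (plus), ADAMTS12 at chr5:33891991-33892110 (minus), ADAM8 at chr10:133276869-133276988 (minus) and MMP24 at chr20:35226570-35226689 (plus).
ADAMTS3: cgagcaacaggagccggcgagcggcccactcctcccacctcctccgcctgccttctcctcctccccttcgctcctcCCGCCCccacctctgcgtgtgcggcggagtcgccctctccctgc
ADAM12: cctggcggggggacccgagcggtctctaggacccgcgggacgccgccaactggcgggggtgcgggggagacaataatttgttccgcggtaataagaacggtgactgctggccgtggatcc
TIMP3: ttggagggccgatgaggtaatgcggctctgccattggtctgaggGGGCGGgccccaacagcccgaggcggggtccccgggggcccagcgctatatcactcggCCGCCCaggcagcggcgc
ADAMTS12: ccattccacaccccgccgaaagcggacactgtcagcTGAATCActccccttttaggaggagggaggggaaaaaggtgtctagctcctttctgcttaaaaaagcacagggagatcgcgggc
ADAM8: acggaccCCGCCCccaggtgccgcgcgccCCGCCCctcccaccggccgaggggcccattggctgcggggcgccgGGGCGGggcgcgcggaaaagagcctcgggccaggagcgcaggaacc
MMP24: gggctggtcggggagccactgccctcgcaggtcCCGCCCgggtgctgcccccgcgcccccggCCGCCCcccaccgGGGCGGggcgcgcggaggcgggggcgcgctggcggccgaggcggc

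The GC box was found 3 times in the windows of ADAM8 and MMP24, which were lower in progenitors, 2 times in that of TIMP3 and 1 time in that of ADAMTS3, which were higher. ADAMTS12 held the only match to TGANTCA among the 6. The pattern accepts any base in the middle, and this match, TGAATCA, has A there. Over the 250 bases before the start, 32 of all 49 member entries (65.3%) held a GC box, among them 14 of 18 entries of higher members and 9 of 10 entries of lower members, against 42.6% of all 35116 promoter entries. An AP-1 match was found in 4 of the 49 (8.16%), 1 of the 18 and 0 of the 10 entries, against 6.57% of all entries. A match is a description of the letters, not a measured site.

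Among the collagenases, gelatinases, stromelysins and matrilysins, 3 of 9 genes were higher and 1 was lower. MMP2, gelatinase A, which cuts denatured collagen and basement membrane collagen, stood at 11.07, 11.06 and 11.11 on the progenitor arrays and at 8.37, 8.62 and 8.33 on the hESC arrays. The groups were far apart, and the change was 2.64 (SE 0.10, limma, adjusted p = 1.27e-06). The other 2 probe sets of MMP2 were dim and not called, at -0.30 and -0.16. MMP9, gelatinase B, stood at 7.80, 7.40 and 7.33 in progenitors and at 7.06, 6.99 and 7.17 in hESC. Its change of 0.43 (SE 0.14, limma, adjusted p = 0.0345) passed the threshold with groups that did not overlap, but the call was lost in 5 settings, among them the runs without hESC array 1 (adjusted p = 0.091), without hESC array 2 (adjusted p = 0.099) and without progenitor array 2 (adjusted p = 0.0528).

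MMP1, interstitial collagenase, was higher by 0.72 (SE 0.14, limma, adjusted p = 0.00401) at low levels, 4.85 to 5.18 against 4.16 to 4.57. MMP8, the neutrophil collagenase, was lower by a small margin, -0.26 (SE 0.09, limma, adjusted p = 0.0484), and 11 settings lost that call, the replicate block included (adjusted p = 0.0772) and each array left out except hESC array 2 (adjusted p from 0.0758 to 0.17). MMP3, MMP7, MMP10, MMP13 and MMP26 were not called, with changes between -0.22 and 0.20.

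Of the other soluble MMPs, 1 of 7 was called. MMP28, epilysin, a secreted MMP with a furin cleavage site, stood at 7.82, 7.58 and 7.61 in progenitors and at 4.33, 4.31 and 4.54 in hESC. All progenitor arrays lay above all hESC arrays, and the change was 3.28 (SE 0.11, limma, adjusted p = 6.95e-07). Its 5 probe sets were all higher, by 0.55 to 3.28. MMP11, stromelysin-3, had a change of -0.24 without a call on its brightest probe set. Another of its 4 probe sets was lower (-0.88, limma, adjusted p = 0.000369), and so was the mean of all 4 (-0.33, adjusted p = 0.011). MMP12, MMP19, MMP20, MMP21 and MMP27 lay between -0.22 and 0.27, all without a call. MMP20 was called lower without hESC array 1 (-0.37, limma, adjusted p = 0.0311).

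All 6 membrane-type MMPs were called, 2 higher and 4 lower. MMP14 and MMP15, which have transmembrane segments, were higher. MMP14, the main activator of pro-MMP2 at the cell surface, stood at 10.40, 10.27 and 10.30 in progenitors and at 9.93, 10.15 and 9.78 in hESC on its brightest probe set. That probe set gave 0.38 (SE 0.11, limma, adjusted p = 0.0268), a call lost in 8 settings, 5 of which left out 1 array. Without progenitor arrays 1, 2 or 3 the adjusted p was 0.0726, 0.0575 and 0.0691, and without hESC arrays 1 or 3 it was 0.0797 and 0.0621. Its 3 other probe sets were higher by 1.30, 1.91 and 0.89, and on none of them did the groups overlap. MMP15 was higher by 0.69 (SE 0.17, limma, adjusted p = 0.0129). Its dim other probe set, the one used without probe sets marked _x_at or _s_at, gave 0.01 and no call.

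The 4 lower membrane-type MMPs had changes of -1.12 to -1.94, and none of their groups overlapped on the brightest probe sets. MMP16, a transmembrane MMP, stood at 7.81, 7.34 and 7.24 in progenitors and at 9.34, 9.83 and 9.06 in hESC. The change was -1.94 (SE 0.22, limma, adjusted p = 0.000299), and 4 of its 5 probe sets were lower. MMP25, which is held by a lipid anchor, stood at 5.90, 6.10 and 6.22 against 8.05, 7.78 and 7.91, a change of -1.84 (SE 0.12, limma, adjusted p = 1.48e-05). Its second probe set gave -0.11 and was not called. MMP24, a transmembrane MMP known from neural tissue, stood at 4.10, 4.40 and 4.34 against 5.57, 5.24 and 5.70, a change of -1.22 (SE 0.14, limma, adjusted p = 0.000303). These levels were low, with mean deposited intensities of 3.37 in progenitors and 31.25 in hESC. The other probe set of MMP24 gave -0.19 and was not called. MMP17, also lipid-anchored, stood at 5.70, 5.51 and 5.75 against 7.04, 6.54 and 6.73, a change of -1.12 (SE 0.14, limma, adjusted p = 0.000458).

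Of the 13 ADAMs that carry the catalytic zinc site, 6 were higher, 2 were lower and 5 were not called. ADAM12, meltrin alpha, a sheddase with roles in muscle and mesenchyme, stood at 7.34, 7.56 and 7.59 in progenitors and at 4.73, 4.70 and 4.76 in hESC. The groups lay far apart, with a change of 2.77 (SE 0.10, limma, adjusted p = 9.1e-07), and 3 of its 5 probe sets were higher, the other 2 being dim and not called. ADAM19, meltrin beta, a sheddase of neuregulin needed in heart development, stood at 10.60, 10.68 and 10.72 against 8.10, 7.97 and 7.92, a change of 2.67 (SE 0.09, limma, adjusted p = 6.87e-07). A second, dim probe set of ADAM19 went the other way, at 4.85, 5.41 and 5.07 in progenitors and 5.54, 5.72 and 5.60 in hESC, a change of -0.50 (limma, adjusted p = 0.0326).

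The general sheddases ADAM10 and ADAM17 were higher by less than 2-fold. ADAM10, which cuts NOTCH receptors and cadherins, stood at 11.43, 11.46 and 11.46 in progenitors and at 10.95, 11.11 and 11.08 in hESC. Its change was 0.40 (SE 0.08, limma, adjusted p = 0.00527), all 3 of its probe sets were higher, by 0.40 to 1.33, and the call was lost when arrays were centred on the median (0.18, adjusted p = 0.149). ADAM17, the TNF-converting enzyme, stood at 9.66, 9.66 and 9.61 against 9.26, 9.06 and 9.25, a change of 0.45 (SE 0.09, limma, adjusted p = 0.00414), with all 3 probe sets higher. ADAM9 was higher by 0.81 (SE 0.10, limma, adjusted p = 0.000482) on its brightest probe set. Its other 2 probe sets gave 0.21 and -0.05 and were not called.

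ADAM15, metargidin, was higher by 0.92 (SE 0.12, limma, adjusted p = 0.000477) on its brightest probe set. Its other probe set had a change of -0.46 and was not called. When a progenitor array was left out this second probe set became the brightest, and the gene's value turned to -0.62, -0.41 and -0.34 without progenitor arrays 1, 2 and 3, the first of these with an adjusted p of 0.0145. With the first probe set kept, the change stayed at 0.85 to 0.96 in these runs, so the direction of ADAM15 depended on the probe set.

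ADAM8, a sheddase known from leukocytes, was lower and stood at 5.45, 5.43 and 5.26 in progenitors and at 6.74, 6.88 and 6.68 in hESC. The change was -1.39 (SE 0.10, limma, adjusted p = 2.32e-05), with no overlap of the groups. The other probe set of ADAM8 gave -0.49 and was not called (limma, adjusted p = 0.129). ADAM20, ADAM21, ADAM28, ADAM30 and ADAMDEC1 were not called, at -0.16 to 0.26. ADAM28 was called higher without hESC array 1 (0.38, limma, adjusted p = 0.0339).

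ADAMs that lack the zinc site act in adhesion and as ligands, and of the 6 measured none was higher and 2 were lower. ADAM23, an ADAM of neural tissue, stood at 6.67, 6.65 and 6.63 in progenitors and at 7.70, 7.82 and 7.51 in hESC, a change of -1.02 (SE 0.10, limma, adjusted p = 0.000124). Of its 4 probe sets, 2 were lower and 2 were not called, at 0.11 and 0.37. ADAM11 was at 5.38 to 5.53 against 6.16 to 6.33, a change of -0.80 (SE 0.09, limma, adjusted p = 0.000258). The other probe set of ADAM11 gave 0.19 and was not called. ADAM22, a receptor of LGI proteins at synapses, gave -0.02 on its brightest probe set, while 3 of its 8 probe sets were lower, the farthest at -1.53 (limma, adjusted p = 0.000374). ADAM2, ADAM18 and ADAM32, known from testis, lay between -0.13 and 0.18 without a call.

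The ADAMTS proteoglycanases, which cut aggrecan and versican, held the largest change in each direction. ADAMTS9 stood at 9.66, 9.87 and 9.84 in progenitors and at 4.41, 4.50 and 4.74 in hESC. Mean deposited intensities were 853 and 7.86, and the change was 5.24 (SE 0.11, limma, adjusted p = 1.68e-07). Of its other probe sets, 2 were higher, by 2.45 and 0.53, and the third, a dim one at 4.92, 4.70 and 4.69 against 5.43, 5.44 and 5.34, was lower (-0.63, limma, adjusted p = 0.00205).

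ADAMTS8 showed the reverse, with 5.72, 4.99 and 5.36 in progenitors and 9.09, 8.98 and 9.09 in hESC. Mean deposited intensities were 24.6 and 517, and the change was -3.70 (SE 0.18, limma, adjusted p = 3.61e-06). All 3 probe sets of ADAMTS8 were lower, by values from -3.70 to -1.81. ADAMTS1, a proteoglycanase expressed in many tissues, was higher by 0.95 (SE 0.09, limma, adjusted p = 0.000123). ADAMTS5, the main aggrecanase of cartilage, and ADAMTS20 were lower, with changes of -0.96 and -0.93, both at low levels in progenitors (4.47 to 4.88). ADAMTS4 was at 0.27 and not called, although its groups did not overlap, and it was called higher without hESC array 2 (0.35, limma, adjusted p = 0.0404).

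**Figure D2:**
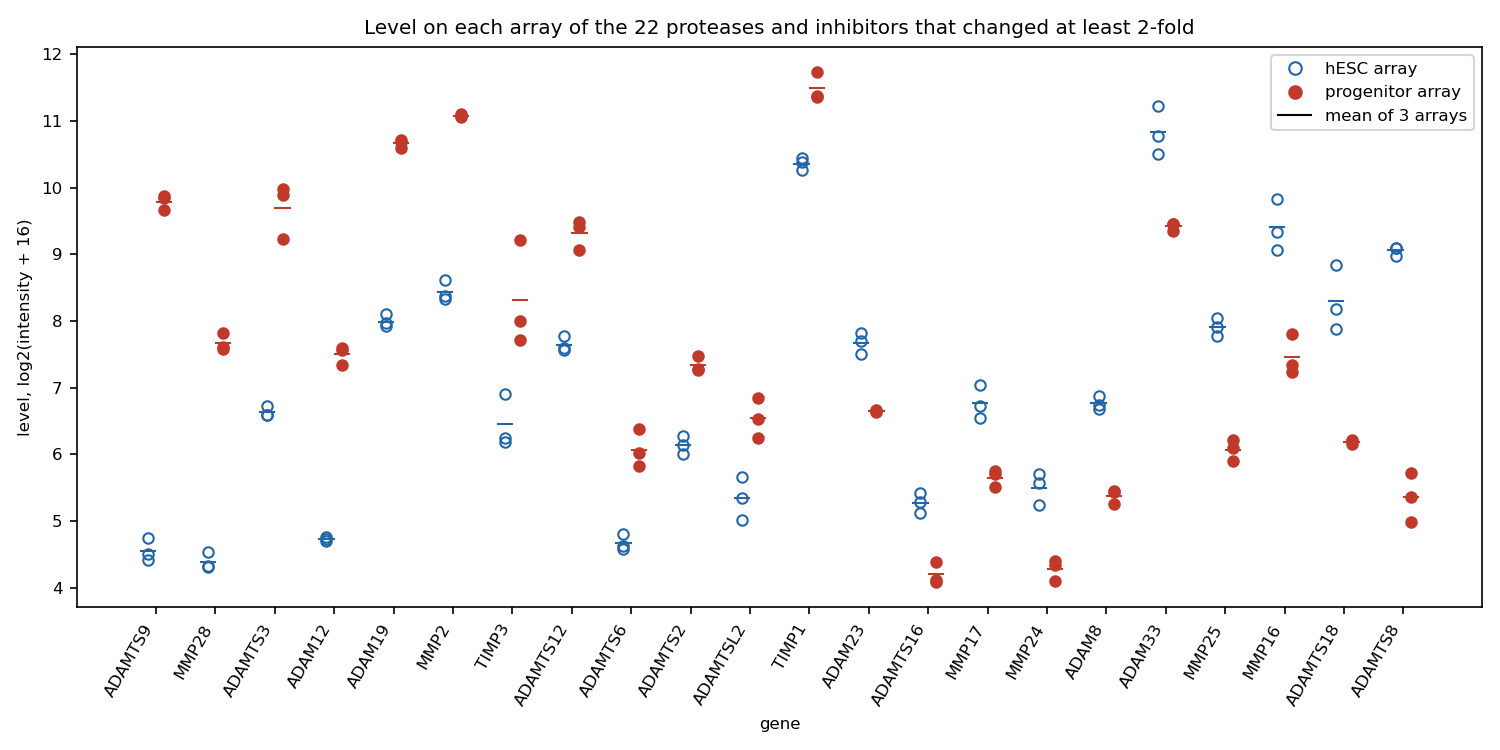
Levels in log2(intensity + 16) are plotted for the 22 proteases and inhibitors that were called and changed at least 2-fold. Open points are the 3 hESC arrays, filled points the 3 progenitor arrays and short lines their means. In each gene drawn the points of the groups do not overlap, and ADAMTS9, at the left, goes from 4.41 to 4.74 in hESC to 9.66 to 9.87 in progenitors.

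Of the 3 procollagen N-proteinases, which remove the amino-terminal propeptide of fibrillar procollagens, 2 were higher and 1 was lower. ADAMTS3, which also activates VEGFC, stood at 9.23, 9.98 and 9.89 in progenitors and at 6.59, 6.59 and 6.73 in hESC. The change was 3.06 (SE 0.19, limma, adjusted p = 1.47e-05), and progenitor array 1 was the lowest of its group. ADAMTS2 stood at 7.47, 7.28 and 7.27 against 6.27, 6.14 and 6.0, a change of 1.21 (SE 0.10, limma, adjusted p = 7.19e-05), with all 3 probe sets higher. ADAMTS14 was lower, with a change of -0.96 (SE 0.17, limma, adjusted p = 0.00244).

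Among the other 8 ADAMTS genes measured, 4 were higher, 3 were lower and ADAMTS17 (-0.12) was not called. ADAMTS12, which cuts cartilage oligomeric matrix protein, stood at 9.06, 9.41 and 9.48 in progenitors and at 7.60, 7.57 and 7.77 in hESC, a change of 1.67 (SE 0.13, limma, adjusted p = 4.12e-05). ADAMTS6, a fibrillin-related ADAMTS with a role in the heart, stood at 6.38, 5.83 and 6.02 against 4.80, 4.58 and 4.63, a change of 1.41 (SE 0.15, limma, adjusted p = 0.00019). In both genes every progenitor array lay above every hESC array on the brightest probe set. The other probe set of ADAMTS12 (0.25) and the other 2 of ADAMTS6 (0.03 and 0.08) were not called. ADAMTS13, the von Willebrand factor protease, and ADAMTS10, which binds fibrillin, were higher by 0.77 and 0.65. Both lost the call when the mean of a gene's probe sets was taken, with 0.27 (limma, adjusted p = 0.0878) and 0.30 (adjusted p = 0.0772).

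ADAMTS16 was lower and close to the bottom of the scale in progenitors, at 4.39, 4.12 and 4.09 against 5.42, 5.28 and 5.12, a change of -1.07 (SE 0.12, limma, adjusted p = 0.000263). The transcript named ADAMTS16-DT, divergent to this gene, was lower too, at 4.73, 4.20 and 4.35 against 6.69, 6.39 and 6.36, a change of -2.05 (SE 0.16, limma, adjusted p = 4.05e-05). ADAMTS19 was lower, with a change of -0.97 (SE 0.14, limma, adjusted p = 0.00087). The transcripts ADAMTS9-AS1 and ADAMTS9-AS2 were higher, with changes of 0.89 and 0.50, beside the 5.24 of ADAMTS9. How the array assigned the strand of these transcripts is not given in the sources used here. The other 8 RNAs of this kind were not called, with changes between -0.25 and 0.12. Among them MMP24OS gave 0.02 on its brightest probe set, and 2 of its 4 probe sets were higher (0.80 and 0.96, limma, adjusted p = 0.00194 and 0.000147). The mean of its probe sets was called higher (0.46, limma, adjusted p = 0.00174).

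ADAMTS18 had no single direction. Its brightest probe set stood at 6.21, 6.20 and 6.16 in progenitors and at 8.18, 8.84 and 7.88 in hESC, a change of -2.11 (SE 0.22, limma, adjusted p = 0.000187). Its second probe set stood at 7.24, 7.29 and 7.20 in progenitors and at 4.48, 4.58 and 4.53 in hESC, a change of 2.71 (SE 0.08, limma, adjusted p = 1.48e-06 over all probe sets). On both, the groups did not overlap, in opposite directions, and the mean of both gave 0.30 without a call.

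The ADAMTS-like proteins resemble ADAMTS enzymes without the protease domain, and 1 of 5 was called. ADAMTSL2, a fibrillin-binding protein, stood at 6.84, 6.25 and 6.53 in progenitors and at 5.66, 5.35 and 5.01 in hESC, a change of 1.20 (SE 0.20, limma, adjusted p = 0.00202). The others lay between -0.40 and 0.14. ADAMTSL4, at -0.40, was called lower without progenitor array 1 (-0.53, limma, adjusted p = 0.0273), while its other probe set was higher with all arrays (0.32, adjusted p = 0.038), so that no single direction can be given. ADAMTSL1 was at 0.14 on its brightest probe set, and 1 of its 5 other probe sets was higher (0.39, limma, adjusted p = 0.0242). Without progenitor array 2 that other probe set became the brightest and gave the gene a call (0.43, limma, adjusted p = 0.0358), while the first gave -0.01.

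The inhibitors did not move together. Of TIMP1 to TIMP4 and RECK, 2 were higher, 2 were lower and TIMP2 was not called. TIMP1, a soluble inhibitor of many MMPs, stood at 11.73, 11.36 and 11.38 in progenitors and at 10.44, 10.26 and 10.38 in hESC. It was higher on every progenitor array, by 1.13 in the mean (SE 0.12, limma, adjusted p = 0.000227). TIMP3, the matrix-bound TIMP, which also inhibits ADAM17 and several ADAMTS enzymes, stood at 9.22, 7.72 and 8.0 against 6.24, 6.91 and 6.19. The groups did not overlap, but progenitor array 1 lay 1.36 above the mean of the other 2. The change was 1.87 (SE 0.39, limma, adjusted p = 0.0058), it was 1.40 (adjusted p = 0.00434) without progenitor array 1, and its 4 probe sets were all higher, by 1.87 to 2.27.

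TIMP2, which at the cell surface bridges MMP14 and pro-MMP2, stood at 9.64, 9.06 and 9.07 in progenitors and at 9.67, 9.51 and 9.72 in hESC. Progenitor array 1 lay among the hESC arrays, the change was -0.38 (SE 0.17, limma, adjusted p = 0.109) and there was no call, and with scaling on the hybridization controls the sign turned (0.11). Without progenitor array 1 it was -0.57 (limma, adjusted p = 0.00434), and another probe set was lower (-0.61) with all arrays. TIMP4 stood at 8.29, 8.35 and 8.38 against 9.0, 8.88 and 8.96, a change of -0.61 (SE 0.08, limma, adjusted p = 0.00059). The groups did not overlap, but with arrays scaled on the hybridization controls the change was -0.08 (adjusted p = 0.656).

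RECK, a membrane-anchored inhibitor of MMP2, MMP9 and MMP14, had probe sets in both directions. The brightest is marked _x_at, the kind whose probes may also match sequences of other genes. It stood at 9.98, 9.70 and 9.88 in progenitors and at 10.54, 10.75 and 10.31 in hESC, a change of -0.68 (SE 0.13, limma, adjusted p = 0.00428). The next stood at 9.20, 8.78 and 8.79 against 7.51, 7.54 and 7.45 and was higher by 1.42. Of the 5 probe sets, 3 were higher (1.42, 1.09 and 1.05), 1 was lower and 1 was not called (-0.27). The one at 1.09 is also marked _x_at. The mean over the probe sets was higher by 0.52 (limma, adjusted p = 0.00106), so the direction given for RECK depends on the probe set.

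ADAM33, a zinc-site ADAM, had the same kind of disagreement. Its brightest probe set, also marked _x_at, stood at 9.35, 9.45 and 9.45 in progenitors and at 10.78, 11.22 and 10.51 in hESC, a change of -1.42 (SE 0.17, limma, adjusted p = 0.000404). Its other probe set stood at 6.82, 7.27 and 7.33 against 6.38, 6.61 and 6.60 and was higher by 0.61 (limma, adjusted p = 0.0173). On the brightest probe sets of RECK, ADAM33, ADAMTS18 and MMP16, hESC array 2 was the highest of the hESC arrays and hESC array 3 the lowest. ADAMTS5, NANOG and COL3A1 had the same order and TIMP2 did not, and its share over all genes was not counted. These 2 arrays were the farthest hESC pair, with 146 genes over 2-fold apart.

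With every probe set tested singly, 56 of the 183 were higher, 34 were lower and 93 were not called. The 90 called may be set beside the 40.2% called among all probe sets. Of the 52 genes with several probe sets, 9 had all of them called one way, 25 had some called one way and the rest not called, 13 had none called, and 5 had calls in opposite directions, namely ADAM19, ADAM33, ADAMTS9, ADAMTS18 and RECK. Of the 37 genes without a call, 6 had a called probe set other than the brightest, namely ADAM22, ADAMTSL1, ADAMTSL4, MMP11, MMP24OS and TIMP2. No filter on low levels was used, and 30 of the 81 genes lay among the dimmest 30% of all genes by their mean.

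**Figure D3:**
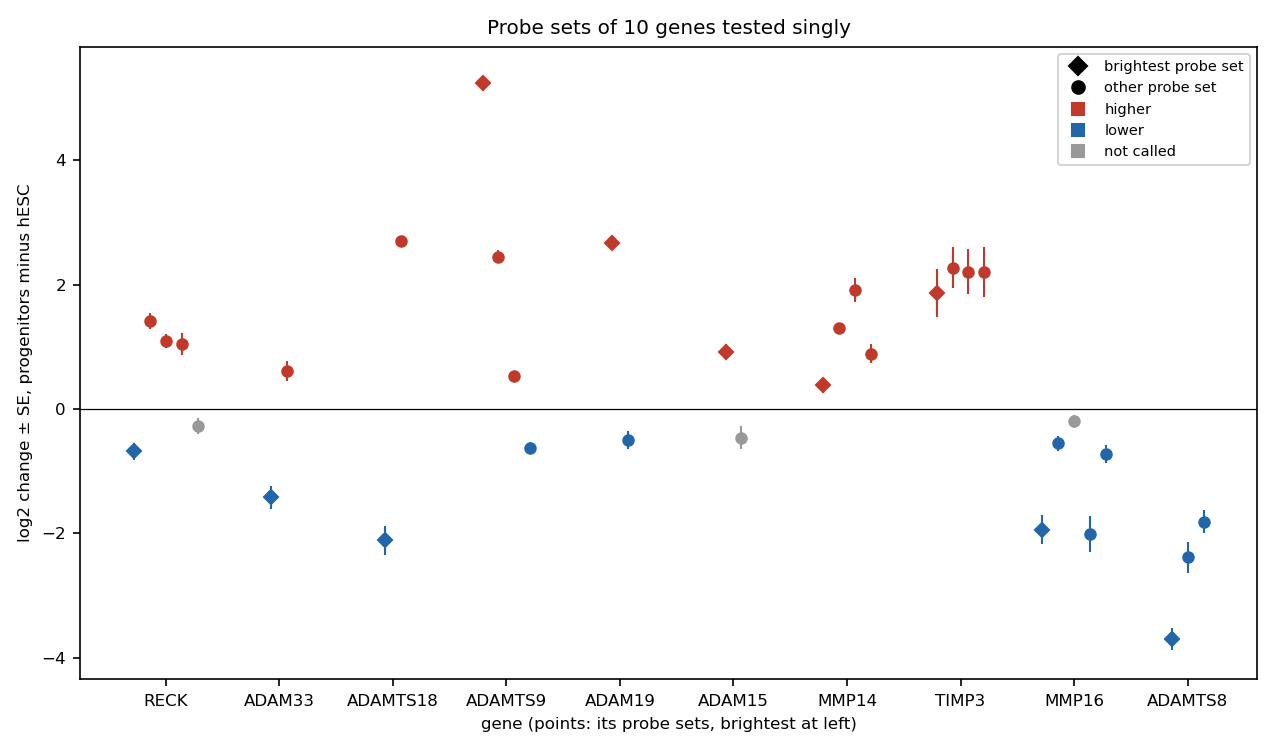
Each point is a probe set of the gene named on the horizontal axis, with the brightest drawn as a diamond at the left, and the vertical axis gives its change in log2(intensity + 16) with the SE, 3 arrays per group. RECK, ADAM33, ADAMTS18, ADAMTS9 and ADAM19 have called points on both sides of 0, while the 4 of MMP14, the 4 of TIMP3 and the 3 of ADAMTS8 lie on 1 side.

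BSG, also called EMMPRIN, which induces MMPs in neighbouring cells, stood at 10.45, 10.28 and 10.22 in progenitors and at 10.29, 10.09 and 10.48 in hESC. The groups overlapped, and the change was 0.03 (SE 0.12, limma, adjusted p = 0.885). Its sign turned when arrays were centred on the median (-0.19), and with scaling on the hybridization controls it was called higher (0.48, adjusted p = 0.0214).

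Progenitor array 1 differed from arrays 2 and 3 in markers of endothelium and in a few of the genes described here. CDH5, VE-cadherin, stood at 10.01, 6.90 and 7.12 on the 3 progenitor arrays. Of 10 endothelial markers, 9 exceeded on array 1 their mean over arrays 2 and 3, by a median of 1.43. Their summed level was 13.27 on progenitor array 1, 12.36 and 12.41 on progenitor arrays 2 and 3, and 11.18 to 11.43 on the hESC arrays. PECAM1, EMCN and CLDN5 were not called between the groups. Among the 81 members 41 were higher on array 1, with a median difference of 0.01.

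Single members stood apart there. Relative to arrays 2 and 3, progenitor array 1 read 1.36 more for TIMP3, and the differences were -0.71 for ADAMTS3 and -1.36 for ADAMTS15, a proteoglycanase. ADAMTS15 stood at 6.92, 8.25 and 8.30 in progenitors and at 7.73, 7.42 and 7.75 in hESC, so that array 1 lay below all hESC arrays and arrays 2 and 3 above them. Its change was 0.19 (SE 0.35, limma, adjusted p = 0.704), and without array 1 it was 0.64 (adjusted p = 0.00807). The part of endothelial cells in these differences was not tested.

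**Figure D4:**
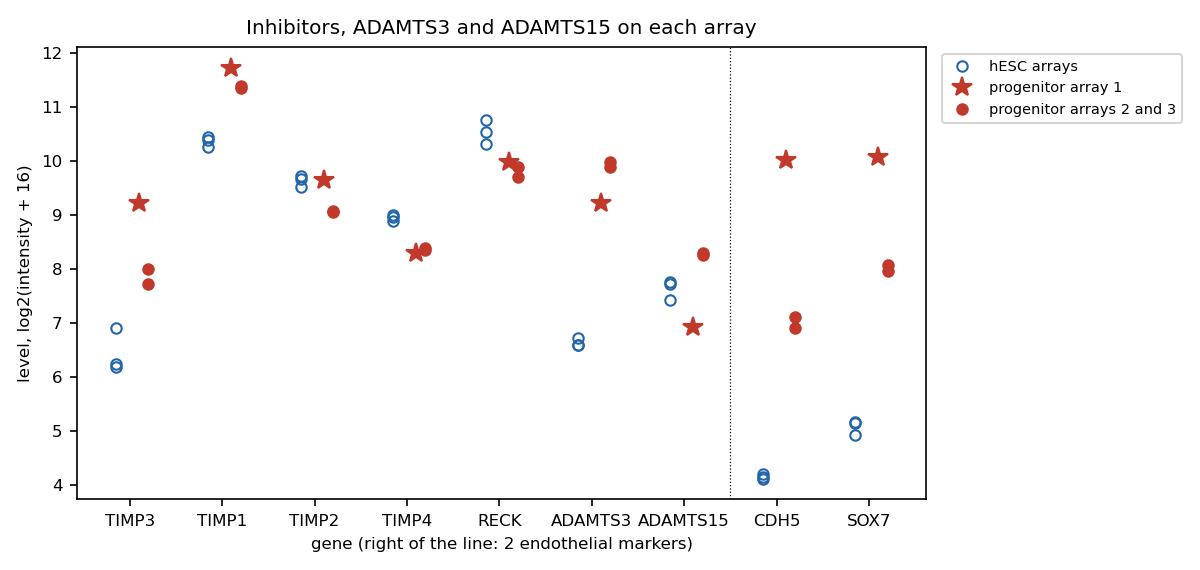
Levels in log2(intensity + 16) on single arrays are drawn for the inhibitors, ADAMTS3 and ADAMTS15, with the endothelial markers CDH5 and SOX7 right of the dotted line. Stars are progenitor array 1, filled points progenitor arrays 2 and 3, and open points the hESC arrays. The star of TIMP3 (9.22) lies above the filled points (7.72 and 8.0), and that of ADAMTS15 (6.92) lies below them (8.25 and 8.30), as CDH5 reads 10.01 against 6.90 and 7.12.

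The convertases that activate many of these proteases were measured for 6 of 9 genes, of which 2 were higher and 3 lower. FURIN was higher by 2.38 (limma, adjusted p = 4.26e-05) and MBTPS1, the site-1 protease, by 0.72. PCSK5 had a change of -1.95 (limma, adjusted p = 1.88e-05), PCSK4 of -0.60 and PCSK6 of -0.54, all lower, and PCSK7 was at 0.21 without a call. Of the partners of ADAM10 and ADAM17, 5 of 12 were higher and 5 lower. Among them TSPAN5 and TSPAN14, tetraspanins that carry ADAM10, were higher by 2.17 and 1.17, and so was FRMD8, which stabilises the iRhom complex of ADAM17, by 1.67, and PACSIN3 by 0.74. TSPAN33, also an ADAM10 tetraspanin, was lower at -1.26, RHBDF2, which is iRhom2, at -1.17 and TSPAN10 at -0.78, while SH3D19 was at -0.20 without a call.

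In the plasminogen system and its serpins, 5 of 12 measured genes were higher and 3 were lower. SERPINE2, protease nexin 1, was higher by 2.26 (limma, adjusted p = 4.63e-06), the plasminogen receptor PLGRKT by 1.47, and S100A10 and ANXA2, which together bind plasminogen, by 0.88 and 0.48. SERPINF1 (-1.99), the urokinase receptor PLAUR (-1.0) and SERPINI1 (-0.92) were lower, and urokinase, PLAU, was at 0.24 without a call. Among 30 other pericellular proteases and their inhibitors, 12 were higher and 9 lower. ANPEP, aminopeptidase N, was higher by 3.16, HTRA1 by 2.75, cathepsin B (CTSB) by 2.29 and the procollagen C-proteinase BMP1 by 1.70. The epithelial protease matriptase, ST14 (-3.22), its inhibitor SPINT1 (-1.75) and TLL2 (-2.77), a relative of BMP1, were lower, and TFPI2 was at -0.21 without a call.

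Of 33 measured ligands and receptors that ADAMs are known to shed, 12 were higher, 10 lower and 11 not called. ERBB4, a neuregulin receptor, was higher by 5.70 (limma, adjusted p = 2.1e-06), the ligands NRG1 and NRG2 by 2.03 and 1.83, and EFNA1 by 2.58. MET (-2.96), E-cadherin, CDH1 (-2.67), and KIT (-2.0) were lower, and APP was at -0.22 without a call. Of 33 matrix substrates, 17 were higher, 6 lower and 10 not called. HAPLN1, a link protein of proteoglycans, was higher by 7.12 (limma, adjusted p = 9.75e-08), lumican (LUM) by 7.06, COL3A1, a substrate of the procollagen N-proteinases, by 4.92 and NID2 by 4.45. THBS2 (-4.41), THBS1 (-2.12) and AGRN (-1.79) were lower, and COL1A1 was at 0.28 without a call. The share called was 69.7% of the matrix substrates, 66.7% of the shed proteins, 66.7% of the plasminogen list and 70.0% of the pericellular list. It was 83.3% of both the convertases and the ADAM partners, beside 47.9% of all genes. With the dimmest 50% of genes left out, 69.4% of all genes kept were called. Those kept included 26 of 33 matrix substrates (20 called in the main fit), 22 of 33 shed proteins (15 called) and 10 of 12 plasminogen genes (8 called). They also included 15 of 30 pericellular genes (14 called), 5 of 6 convertases (4 called) and 10 of 12 ADAM partners (9 called). In the same main fit, 6341 of the 9887 genes in the brighter 50% were called. The differences from these shares were not tested. LUM and COL3A1 also stand among the fibroblast markers, of which 4 of 7 were higher and 1 was lower. The summed level of these markers was 13.45 to 13.47 on progenitor arrays and 12.10 to 12.52 on hESC arrays. Their part in these changes was not tested.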

How the data were processed

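The authors' deposited values are intensities on a linear scale, 1 per probe set and array. How probes were summarised, corrected for background and scaled is not given in the sources used here. Values at 1 or below made up 2.15% of all, which limits low levels. Probe sets annotated to 1 symbol (41097) were kept, symbols were updated through the gene identifier, and the 62 array controls were left out.

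Intensities were converted to log2(intensity + 16). The array medians spanned 0.1495, above the limit of 0.1, and the arrays were quantile-normalized. Each gene was represented by its 1-gene probe set with the highest mean. Genes were tested with limma (lmFit and eBayes, version 3.58.1, R 4.3.3), two-sided, with Benjamini-Hochberg adjustment over all 19775 genes, and probe sets singly over all that are no control. With 3 arrays per group, their number limits the precision.

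The members and the gene lists were chosen with earlier results of these data known. Every member could be named. Values per array are given for called members that changed at least 2-fold without overlap, for the inhibitors, BSG, MMP2, MMP9, MMP14, ADAM10 and ADAM17, and for genes with opposed probe sets. ADAMTS15 was added after its values were seen. For each pathway list the 4 largest increases, the 3 largest decreases and the brightest gene without a call are named. The alternatives were other scalings, pseudocounts, filters, probe set choices and variance models, a replicate block, an averaged pair of arrays, and each array left out. Keeping a gene's probe set when an array is left out was an alternative chosen after seeing the data.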

Additional observations from a re-analysis of the deposited data

How the results depend on the processing

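Over 18 alternatives, 31 of the 44 called genes kept call and direction wherever they were measured, and so did 21 of the 23 that changed at least 2-fold, the exceptions being ADAMTS18 and MMP25. The 13 that did not were ADAM10, ADAM15, ADAMTS10, ADAMTS13, ADAMTS18, ADAMTS9-AS2, MMP8, MMP9, MMP14, MMP15, MMP25, RECK and TIMP4. Of the 21, ADAM8, ADAM33, MMP17, MMP24 and TIMP3 had only probe sets marked _x_at or _s_at, so the setting without these did not measure them. ADAM19, ADAM33 and ADAMTS9 count among the 21 although each had probe sets called in opposite directions. Of the 37 genes without a call, 16 were called under some alternative. With the dimmest 50% of genes left out, 31 members were measured, of which 16 were higher and 9 lower, 80.6% called against 69.4% of the genes kept. The median change of the members was -0.05 without normalization, -0.20 with median centring, 0.27 with scaling on the hybridization controls, 0.01 with a pseudocount of 64, 0.04 and 0.38 without the dimmest 30% and 50% of genes, 0.00 without probe sets marked _x_at or _s_at, and -0.02 to 0.04 with 1 array left out.

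Signs that turned were as follows. BSG was at -0.04 without normalization. With median centring BSG was at -0.19, ADAMTSL1 at -0.06 and MMP24OS at -0.13. Scaling on the hybridization controls gave 0.10 for ADAM18, 0.02 for ADAM21, 0.39 for ADAM22, 0.15 for ADAMTS17, 0.29 for MMP11, 0.05 for MMP25-AS1 and 0.11 for TIMP2. The mean of a gene's probe sets gave -0.12 for ADAM28, 0.30 for ADAMTS18 and 0.52 for RECK. Without probe sets marked _x_at or _s_at, ADAMTS10 was at -0.05 and RECK at 1.42, and ADAM33 was not measured. With progenitor arrays 2 and 3 averaged, ADAMTS15 was at -0.04. Leaving out 1 array gave -0.62 to 1.03 for ADAM15, -0.12 to 0.05 for ADAM22 and -0.05 to 0.64 for ADAMTS15. It gave -0.20 to 0.01 for ADAMTS17, -0.07 to 0.12 for BSG and -0.05 to 0.16 for MMP24OS. ADAMTSL1 ranged from 0.10 to 0.43 in these runs, in some of which another probe set stood for it. With its first probe set kept it was at -0.01 without progenitor array 2. The causes of these turns were not tested, except that other probe sets then stood for ADAM15, ADAMTS10 and RECK. Other probe sets also stood for ADAMTS5 and ADAMTS19 in some runs with an array left out, where both remained lower with either probe set.

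With the replicate number as a block, 25 members were higher and 18 lower, and MMP8 lost its call. The deviations of same-numbered arrays from their group means correlated at -0.0218, 0.0271 and -0.0378. With so few arrays per group, these values cannot decide whether the numbers paired the arrays, and the labels do not say. With the closest pair averaged, 24 members were higher and 18 lower, and MMP8 and MMP14 lost their calls.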
